A study of Mus musculus with 27 samples.

Results

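Whole-colon RNA was examined for 8 genes of the enteric nervous system, named by symbol: Elavl4, Uchl1, Ret, Nos1, Vip and Npy2r for neurons and S100b and Sox10 for glia. All 8 were among the 35975 genes summed from the deposited transcript counts, and all 8 passed the low-count filter in every comparison. Of the groups compared, the Foxa1/2-deficient mice carried Villin1-Cre; Foxa1lox/lox; Foxa2lox/lox. Among the control mice, 5 were Foxa1lox/lox; Foxa2lox/lox without Cre, 1 was Villin1-Cre; Foxa1lox/wt; Foxa2lox/wt and 1 was Villin1-Cre; Foxa1lox/lox; Foxa2lox/wt. Every control mouse therefore carried at least 1 floxed allele of each gene. Villin1-Cre drives recombination in the intestinal epithelium, so the deletion was aimed at epithelial cells and not at neurons or glia. Proximal colon came from 7 deficient and 7 control mice and distal colon from 7 deficient and 6 control mice, all on a mixed background, and 13 of the 14 mice gave both segments. Ages ran from 9 to 13 months among deficient mice, 2 of which the labels give as female, and from 9 to 18 months among control mice, all given as male, with 3 at 18 months.

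The enteric nervous system lies in the gut wall as ganglia between the muscle layers and beneath the mucosa, and its neurons and glia descend from neural crest cells that need the receptor tyrosine kinase RET and the transcription factor SOX10. Its inhibitory motor neurons relax gut muscle with nitric oxide and vasoactive intestinal peptide. Peptide YY, released by enteroendocrine cells of the colon, acts on neurons through the NPY2R receptor. Elavl4 and Uchl1 mark neurons in general, and S100b marks glia.

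Libraries held 18472867 to 56744113 estimated counts, with a median of 40556273. Levels are given as CPM (counts scaled to effective library size), normalised over all 27 libraries, and a gene was called at an adjusted p under 0.05. Foxa1 was at 10.1 to 14.5 CPM in proximal deficient libraries and at 50.9 CPM or more in proximal control libraries, except 13.9 CPM in control replicate 6, whose label gives Cre and no wild-type Foxa1 allele. That mouse was also low in distal colon, at 7.6 CPM, where the other control libraries had 42.4 CPM or more and the deficient libraries 7.2 to 10.5 CPM. Foxa2 did not overlap, at 0.326 to 1.75 CPM over all deficient libraries and 6.05 CPM or more in every control library. The distal libraries of deficient replicates 7 and 3 had the lowest summed smooth muscle levels, at 708 and 813 CPM. Deficient replicate 3, labelled male, had little of the Y-linked Ddx3y, with 0.0216 CPM proximally and 0.617 CPM distally, against 33.3 CPM or more in every other mouse labelled male. Epcam, an epithelial adhesion gene, averaged 1990 to 2690 CPM over the groups. Myh11, the smooth muscle myosin heavy chain, averaged 185 to 566 CPM, so epithelium and muscle were both in the samples.

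Deficient and control colon differed clearly in 1 of the 8 genes, and in 1 segment. Npy2r was higher in deficient distal colon, by a log2 fold change of 2.53. In proximal colon 0 of the 8 genes were called, against 11.7% of the 16787 genes tested (5.52% higher, 6.17% lower). In distal colon 1 of the 8 was called, against 6.1% of the 16041 genes tested (2.79% higher, 3.3% lower). The general neuron markers, the inhibitory transmitter genes and the glial genes had lower mean levels in deficient distal colon without passing the test, and smooth muscle genes likewise had values below 0 there with none called. In bulk tissue, fewer cells of a type and less RNA per cell cannot be told apart.

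**Figure D1:**
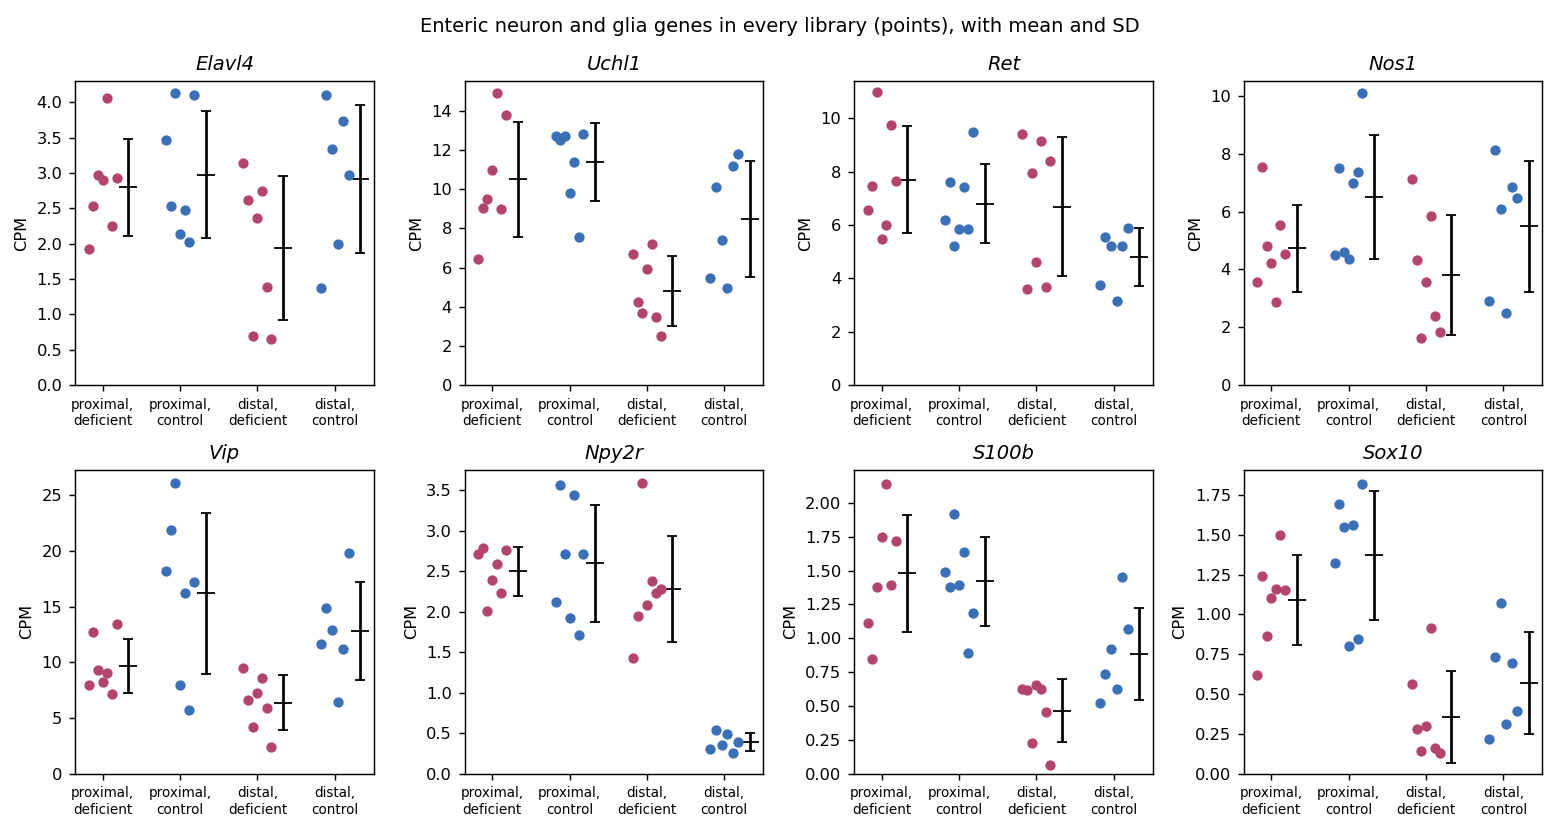
Levels of the 8 genes in CPM in every library (points), with the mean and SD of each group beside them, for proximal and distal colon of deficient and control mice. The 7 distal deficient libraries had Npy2r at 1.43 to 3.59 CPM, all above the 6 distal control libraries.

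Npy2r (ENSMUSG00000028004.12, chromosome 3, 82538383 to 82548084, minus strand, GRCm38) encodes the Y2 receptor for neuropeptide Y and peptide YY. Because Npy2r carried the one genotype difference, and Foxa1 and Foxa2 are forkhead factors that bind a TGTTTAC or TGTTTGC core, the 250 bases before its start were read from RefSeq (GRCm38.p6, chr3:82548086-82548335, minus strand). The window before Vip (chr10:5638968-5639217, plus strand) is set beside it because Vip had the next smallest p. Capitals mark matches to the forkhead cores or to TGACGTC, the core of a cAMP response element, searched on both strands.
Npy2r: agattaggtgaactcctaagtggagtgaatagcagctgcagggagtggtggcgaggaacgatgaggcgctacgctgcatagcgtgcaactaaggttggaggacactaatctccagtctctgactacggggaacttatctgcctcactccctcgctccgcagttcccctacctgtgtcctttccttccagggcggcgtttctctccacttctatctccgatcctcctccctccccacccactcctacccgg
Vip: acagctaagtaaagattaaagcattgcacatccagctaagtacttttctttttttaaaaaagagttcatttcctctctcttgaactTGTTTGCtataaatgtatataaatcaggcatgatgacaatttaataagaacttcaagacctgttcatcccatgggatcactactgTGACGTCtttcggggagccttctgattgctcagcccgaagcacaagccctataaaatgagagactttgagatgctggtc
The Npy2r window held none of these letters. The Vip window held TGTTTGC 164 bases and TGACGTC 79 bases before the start, and the motifs do not overlap each other. Either forkhead core was in 7.29% of 32851 mouse promoter windows of the same length and TGACGTC in 2.78%. Among the 6 of the 8 genes with a window in the RefSeq table, Vip was the one with a match. A match of letters is a description of the window and shows no binding, and the motifs were chosen with the genes' values known.

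Npy2r in distal colon had a lowest, median and highest level of 1.43, 2.23 and 3.59 CPM in the 7 deficient libraries, against 0.261, 0.376 and 0.54 CPM in the 6 control libraries. The groups did not overlap, which was so for 3.4% of all genes tested in distal colon. Behind these levels stood 35 to 128 estimated counts per deficient library and 7 to 28 per control library, so the control level rested on few counts. The log2 fold change was 2.53 (SE 0.25, 95% interval 1.99 to 3.08), a ratio of 5.78, with an adjusted p of 3.65e-05 from edgeR's quasi-likelihood test with Benjamini-Hochberg adjustment, and 7 of 7 deficient libraries were above the control median. A two-sided exact permutation test of the difference in mean log2 CPM, over all 1716 assignments, gave p = 0.000583, the smallest that 7 against 6 libraries allow.

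The distal difference of Npy2r held when the doubted libraries were left out. Without deficient replicates 3 and 7 the log2 fold change was 2.36 (edgeR adjusted p = 0.000211), and with control mice without Cre only it was 2.45 (adjusted p = 0.000554). Leaving out each distal library in turn gave 2.38 to 2.66, called in 13 of 13 fits. With smooth muscle level, taken as the mean log2 CPM of 14 smooth muscle genes, as a covariate it was 2.35 (edgeR adjusted p = 0.000214).

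In proximal colon Npy2r had a lowest, median and highest level of 2.01, 2.59 and 2.79 CPM in deficient libraries and of 1.71, 2.71 and 3.57 CPM in control libraries. The groups overlapped, as they did for all 8 genes in proximal colon, where 4.81% of the genes tested had groups without overlap. The log2 fold change was -0.04 (SE 0.18, interval -0.42 to 0.33, edgeR adjusted p = 0.926). The genotype effect on Npy2r thus differed between segments: distal minus proximal, it was 2.54 on the log2 scale (SE 0.33, interval 1.83 to 3.24, adjusted p = 0.00258, edgeR with mouse as a block, 13 mice). Of the 8 genes Npy2r was the one called in this test, against 0.933% of the 18759 genes tested (0.4% higher, 0.533% lower).

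Seen along the colon, Npy2r did not differ beyond its spread between segments of deficient mice and was lower distally in control mice. Distal over proximal, the log2 fold change was -0.17 in deficient mice (SE 0.21, interval -0.63 to 0.3, edgeR adjusted p = 0.529), with the distal level lower in 5 of 7 mice. In control mice it was -2.70 (SE 0.26, interval -3.28 to -2.11, adjusted p = 7.77e-05), with the distal level lower in 6 of 6 mice. The distal deficient median of Npy2r, 2.23 CPM, lay inside the range of both proximal groups, while single distal deficient libraries lay outside them at either end (1.43 and 3.59 CPM). All 6 distal control libraries lay below every library of the other groups. The distal control libraries enter the genotype comparison, the segment comparison of control mice and the test of the difference, so these results share data.

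**Figure D2:**
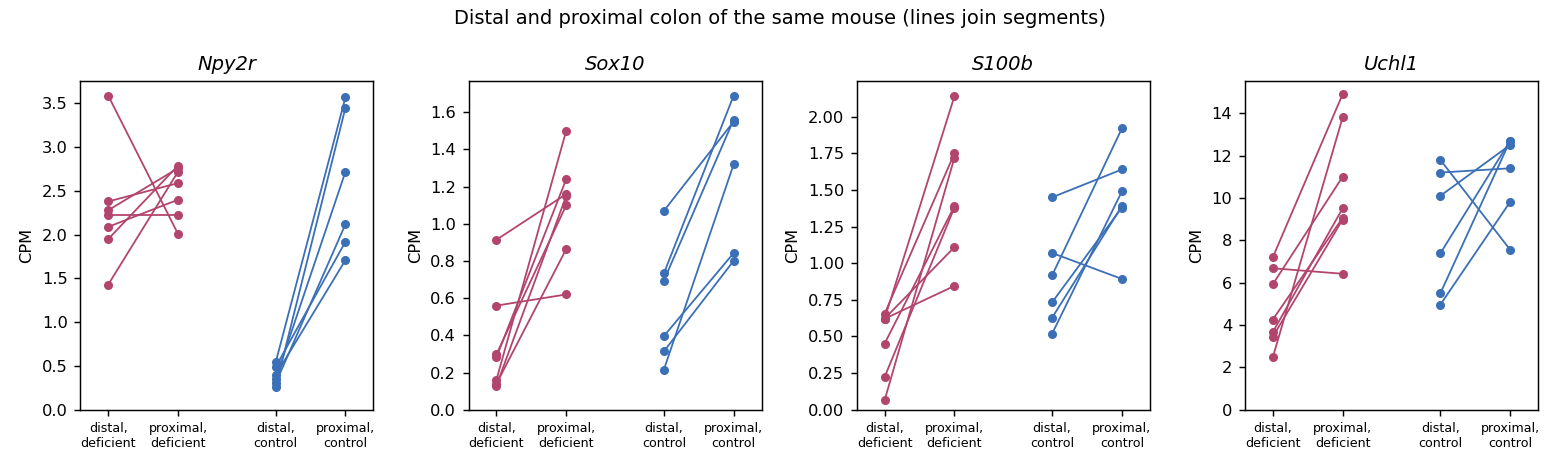
Levels in CPM of Npy2r, Sox10, S100b and Uchl1 in distal and proximal colon, with a line joining the segments of each mouse, for 7 deficient and 6 control mice. Npy2r was lower distally in 6 of 6 control mice, and Sox10 was lower distally in every mouse of both groups.

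Peptide ligands of the NPY receptors were also measured. Of 7 listed genes of this family other than Npy2r, 4 could be tested, and in proximal colon 2 fell in deficient mice while 0 rose. Pyy, which encodes peptide YY, averaged 16.4 ± 3.67 CPM in proximal deficient libraries and 34.7 ± 3.28 CPM in proximal control libraries (SD, n = 7 each), a log2 fold change of -1.06 (edgeR adjusted p = 4.75e-05). Ppy, which encodes pancreatic polypeptide, averaged 1.24 ± 0.467 CPM in proximal deficient and 2.44 ± 0.53 CPM in proximal control libraries (log2 fold change -0.96, adjusted p = 0.00952). In distal colon 0 of the 4 were called, with Pyy at a log2 fold change of 0.46 (adjusted p = 0.319) and Ppy at -1.25 (adjusted p = 0.115). The genotype effects on Ppy in the segments were not shown to differ (distal minus proximal -0.34, edgeR adjusted p = 0.788). The genotype effect on Pyy differed between segments (distal minus proximal 1.5 on the log2 scale, edgeR adjusted p = 0.00927), and the segment where Pyy fell was not the one where Npy2r was higher.

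Enteroendocrine transcripts moved in distal colon beside Npy2r. The summed level of 16 enteroendocrine genes was 361 to 681 CPM in distal deficient libraries and 173 to 326 CPM in distal control libraries, without overlap. Chgb, the gene of highest mean level in that sum, averaged 276 ± 96.0 CPM in distal deficient and 88.7 ± 28.0 CPM in distal control libraries. Chgb was thus the largest single part of the sum in both groups, beside median sums of 426 CPM (deficient) and 231 CPM (control). Of the 14 testable in distal colon, 8 rose, 0 fell and 6 did not pass, while in proximal colon 5 of 16 rose and 5 fell. The developmental factors Rfx6, Pax6 and Neurod1 rose in distal colon, by log2 fold changes of 2.65, 1.76 and 1.63 (edgeR adjusted p = 9.98e-05, 2.22e-05 and 0.0112), and in proximal colon too, by 1.95, 1.34 and 1.56 (adjusted p = 6.97e-06, 8.78e-06 and 3.03e-07). Chga, a granule protein gene of these cells, fell in proximal colon by 2.67 on the log2 scale (adjusted p = 6.83e-07). Its distal log2 fold change was -0.68 (edgeR adjusted p = 0.0601), below 0 without passing the test. No gene of the list was at 0 in every library of a group, and the part of these cells in the Npy2r level was not tested.

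Vip (ENSMUSG00000019772.5, chromosome 10, 5639218 to 5647617, plus strand) encodes vasoactive intestinal peptide, a transmitter of inhibitory motor and secretomotor neurons. In proximal colon Vip had a lowest, median and highest level of 7.14, 9.0 and 13.4 CPM in deficient libraries, against 5.7, 17.2 and 26.1 CPM in control libraries. All 7 deficient libraries were below the control median, but the groups overlapped because control replicates 6 and 4, at 5.7 and 7.94 CPM, were low. The log2 fold change was -0.73 (SE 0.28, interval -1.32 to -0.13), with an edgeR adjusted p of 0.117. Vip passed in some alternatives. Without control replicate 6 the log2 fold change was -0.87 and the adjusted p 0.0172. With control mice without Cre only, which also leaves that mouse out, it was -0.87 (adjusted p = 0.0315), and among mice of 9 to 13 months -0.93 (adjusted p = 0.0419). With smooth muscle level as a covariate, and every library kept, it was -0.76 (adjusted p = 0.0137).

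Distal Vip showed the same direction. It had a lowest, median and highest level of 2.41, 6.66 and 9.48 CPM in deficient libraries and of 6.42, 12.2 and 19.8 CPM in control libraries. Again 7 of 7 deficient libraries were below the control median, with overlap at the lowest control library, replicate 4. The log2 fold change was -0.98 (SE 0.30, interval -1.61 to -0.34), with an adjusted p of 0.0712 in edgeR and 0.0161 in DESeq2. It passed in edgeR without control replicate 4 (-1.13, adjusted p = 0.0333) and without deficient replicate 1 (-1.11, adjusted p = 0.0471). It came to -0.74 (adjusted p = 0.118) without deficient replicates 3 and 7, and to -0.55 (adjusted p = 0.185) with smooth muscle level as a covariate. The effects of genotype on Vip in the segments were not shown to differ (difference -0.38, interval -1.37 to 0.62, adjusted p = 0.813).

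Nos1 (ENSMUSG00000029361.18, chromosome 5, 117781032 to 117958840, plus strand) encodes neuronal nitric oxide synthase, the enzyme of the nitrergic inhibitory neurons. Its lowest, median and highest proximal levels were 2.89, 4.52 and 7.55 CPM in deficient libraries and 4.36, 7.01 and 10.1 CPM in control libraries. In distal colon they were 1.63, 3.55 and 7.12 CPM in deficient libraries and 2.51, 6.3 and 8.12 CPM in control libraries. In each segment 6 of 7 deficient libraries lay below the control median and the groups overlapped. The log2 fold change was -0.44 (interval -0.93 to 0.04, edgeR adjusted p = 0.27) in proximal and -0.51 (interval -1.32 to 0.31, adjusted p = 0.538) in distal colon. In the proximal fit limited to mice of 9 to 13 months Nos1 came to -0.15, and the distal value turned to 0.18 with the smooth muscle covariate.

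The wider list of inhibitory transmission genes had 1 of 12 tested genes lower in proximal colon and 1 of 11 lower in distal colon, with 0 higher in either. Vipr2, a receptor for vasoactive intestinal peptide that smooth muscle carries, averaged 1.38 ± 0.401 CPM in proximal deficient and 3.75 ± 1.27 CPM in proximal control libraries (log2 fold change -1.42, SE 0.25, edgeR adjusted p = 0.00114). Gad2, an enzyme that makes the transmitter GABA, averaged 0.578 ± 0.204 CPM in 7 distal deficient and 1.47 ± 0.713 CPM in 6 distal control libraries (log2 fold change -1.31, adjusted p = 0.0297). The Gad2 call held in 11 of 23 alternatives and was lost without deficient replicates 3 and 7 (adjusted p = 0.0647). The median log2 fold change of the list was 0.02 in proximal colon and -0.33 in distal colon, beside 0.008 and 0.017 over all genes tested. The excitatory transmission list had a median of -0.12 in proximal and -0.4 in distal colon, with 11 of 12 tested genes below 0 distally. Of the excitatory transmission genes, 0 of 13 were called in proximal and 0 of 12 in distal colon. Of these, Penk, which encodes the enkephalin precursor, had the smallest p, with a proximal log2 fold change of -0.42 (adjusted p = 0.1, and 0.0329 without control replicate 6), and Tac1, which encodes substance P, was at -0.36 (adjusted p = 0.133).

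**Figure D3:**
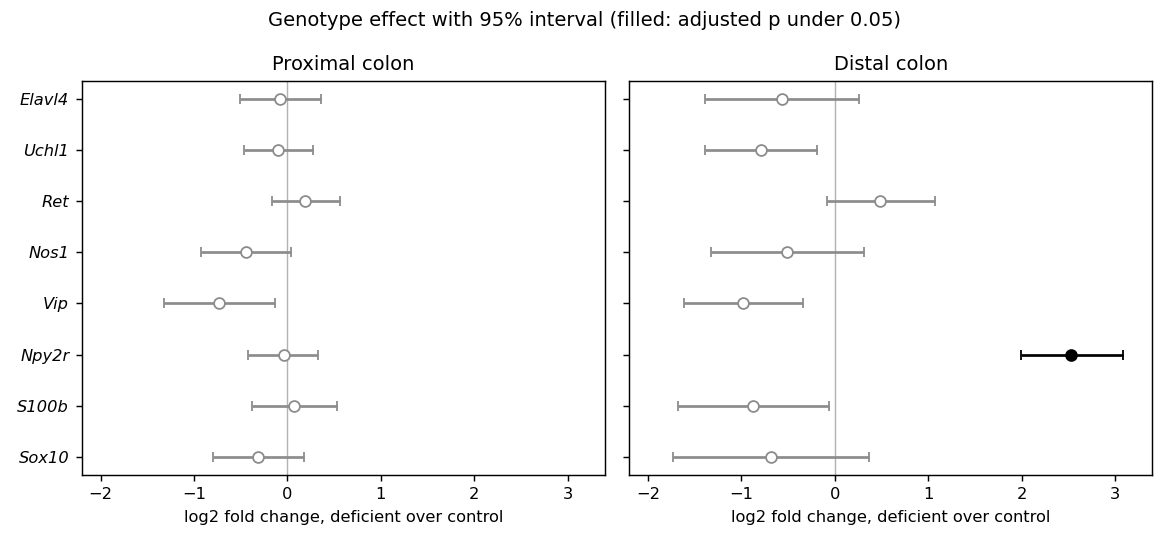
Log2 fold change of the 8 genes, deficient over control, with its 95% interval, in proximal and distal colon. Filled points passed an adjusted p of 0.05, which only distal Npy2r did, at 2.53.

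Elavl4 (ENSMUSG00000028546.17, chromosome 4, 110203722 to 110351909, minus strand) encodes HuD, an RNA-binding protein of neurons. In proximal colon its lowest, median and highest levels were 1.93, 2.9 and 4.07 CPM in deficient libraries and 2.03, 2.53 and 4.13 CPM in control libraries. In distal colon they were 0.652, 2.36 and 3.14 CPM in deficient libraries and 1.38, 3.15 and 4.11 CPM in control libraries. The groups covered nearly one range in proximal colon, while distally deficient replicates 7 and 3, at 0.652 and 0.701 CPM, lay under all others. Elavl4 had a log2 fold change of -0.08 (interval -0.51 to 0.36, edgeR adjusted p = 0.885) in proximal and -0.56 (interval -1.39 to 0.26, adjusted p = 0.491) in distal colon. Without those 2 libraries the distal value was -0.25, and with the smooth muscle covariate it was 0.09.

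Uchl1 (ENSMUSG00000029223.12, chromosome 5, 66676091 to 66687234, plus strand) encodes a ubiquitin hydrolase that is abundant in neurons, also known as PGP9.5. In proximal colon its lowest, median and highest levels were 6.42, 9.51 and 14.9 CPM in deficient libraries and 7.56, 12.5 and 12.8 CPM in control libraries. In distal colon they were 2.48, 4.26 and 7.2 CPM in deficient libraries and 4.96, 8.73 and 11.8 CPM in control libraries. All 7 distal deficient libraries were below the control median, with overlap. Uchl1 had a log2 fold change of -0.10 (interval -0.46 to 0.27, edgeR adjusted p = 0.816) in proximal and -0.79 (SE 0.28, interval -1.39 to -0.19, adjusted p = 0.132) in distal colon. With the smooth muscle covariate the distal value of Uchl1 was -0.31 (adjusted p = 0.393).

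Among 20 other pan-neuronal genes, 1 rose and 0 fell in each segment, of 19 tested in proximal and 18 in distal colon. The gene that rose was Map2, a microtubule protein of dendrites. It averaged 30.6 ± 7.26 CPM in 7 distal deficient and 7.1 ± 2.77 CPM in 6 distal control libraries (log2 fold change 2.12, SE 0.23, edgeR adjusted p = 8.2e-05), and 4.87 ± 0.683 CPM in proximal deficient and 3.71 ± 0.513 CPM in proximal control libraries (0.41, adjusted p = 0.0483, a call kept in 7 of 24 alternatives). Of the 18 genes tested in distal colon 15 were below 0, and the list's median log2 fold change was -0.52 in distal and -0.01 in proximal colon. Elavl4 and Uchl1, at -0.56 and -0.79 in distal colon, lay near or below that median.

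Ret (ENSMUSG00000030110.13, chromosome 6, 118151745 to 118197718, minus strand) encodes the receptor that glial cell line-derived neurotrophic factor and its relatives use together with a GFRA co-receptor. In proximal colon its lowest, median and highest levels were 5.47, 7.46 and 11.0 CPM in deficient libraries and 5.21, 6.2 and 9.5 CPM in control libraries. In distal colon they were 3.61, 7.96 and 9.42 CPM in deficient libraries and 3.14, 5.22 and 5.9 CPM in control libraries. Distally the deficient libraries parted into 4 at 7.96 CPM or more, above all control libraries, and 3 between 3.61 and 4.62 CPM, within the control range. Ret had a log2 fold change of 0.19 (interval -0.17 to 0.56, edgeR adjusted p = 0.577) in proximal and 0.49 (interval -0.08 to 1.07, adjusted p = 0.359) in distal colon. Ret was the one other of the 8 genes above 0 in distal colon beside Npy2r.

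Of 11 genes for RET ligands, co-receptors and partners, 11 were tested in proximal and 10 in distal colon, and 1 rose and 0 fell in each segment. The gene was Gfra3, which encodes the co-receptor for artemin. It averaged 8.42 ± 2.18 CPM in 7 distal deficient and 1.83 ± 0.605 CPM in 6 distal control libraries (log2 fold change 2.22, SE 0.24, edgeR adjusted p = 8.39e-05). In proximal colon it averaged 6.92 ± 1.28 CPM in deficient and 1.79 ± 0.426 CPM in control libraries (SD, n = 7 each, log2 fold change 1.97, adjusted p = 1.3e-06). It was called in all 24 alternatives in each segment. The list's median was -0.09 in proximal and -0.08 in distal colon.

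The glial genes are at low levels. S100b (ENSMUSG00000033208.7, chromosome 10, 76253853 to 76261159, plus strand) encodes a calcium-binding protein of glia. In proximal colon its lowest, median and highest levels were 0.845, 1.39 and 2.14 CPM in deficient libraries and 0.893, 1.39 and 1.92 CPM in control libraries. In distal colon they were 0.0652, 0.621 and 0.656 CPM in deficient libraries and 0.519, 0.825 and 1.45 CPM in control libraries. The proximal groups shared a median, and all 7 distal deficient libraries were below the control median, with overlap. Distal counts of S100b were 1 to 22 per deficient library and 12 to 50 per control library, and deficient replicate 7 had 1. S100b had a log2 fold change of 0.07 (interval -0.38 to 0.53, edgeR adjusted p = 0.89) in proximal and -0.87 (SE 0.38, interval -1.68 to -0.06, adjusted p = 0.237) in distal colon. Without deficient replicates 3 and 7 the distal value was -0.56, and with the smooth muscle covariate -0.26.

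Sox10 (ENSMUSG00000033006.10, chromosome 15, 79154908 to 79165240, minus strand) encodes the transcription factor that glia keep from the neural crest. In proximal colon its lowest, median and highest levels were 0.62, 1.15 and 1.5 CPM in deficient libraries and 0.801, 1.55 and 1.82 CPM in control libraries. In distal colon they were 0.13, 0.282 and 0.914 CPM in deficient libraries and 0.216, 0.546 and 1.07 CPM in control libraries. All 7 proximal and 5 of 7 distal deficient libraries were below the control median, and the groups overlapped. Distal Sox10 rested on 2 to 25 estimated counts per deficient and 5 to 42 per control library. Sox10 had a log2 fold change of -0.31 (interval -0.80 to 0.18, edgeR adjusted p = 0.488) in proximal and -0.68 (interval -1.73 to 0.37, adjusted p = 0.518) in distal colon, and neither difference passed the test.

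Of 16 other listed glial genes, 1 rose and 1 fell among 15 tested in proximal colon, and 0 of 12 were called in distal colon. Fabp7, a fatty acid binding protein gene of glia, averaged 0.988 ± 0.274 CPM in proximal deficient and 0.224 ± 0.162 CPM in proximal control libraries (SD, n = 7 each, log2 fold change 2.17, edgeR adjusted p = 0.000754). The proximal control level is near the floor, with 0.0712 CPM in the lowest library. Distal Fabp7 had the same direction without passing the test (log2 fold change 1.46, edgeR adjusted p = 0.0849). Col28a1, a collagen gene of peripheral glia, fell by 0.55 on the log2 scale (adjusted p = 0.0394), a call kept in 9 of 24 alternatives. The list's median was 0.12 in proximal and -0.30 in distal colon, and S100b and Sox10 lay below the distal median.

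**Figure D4:**
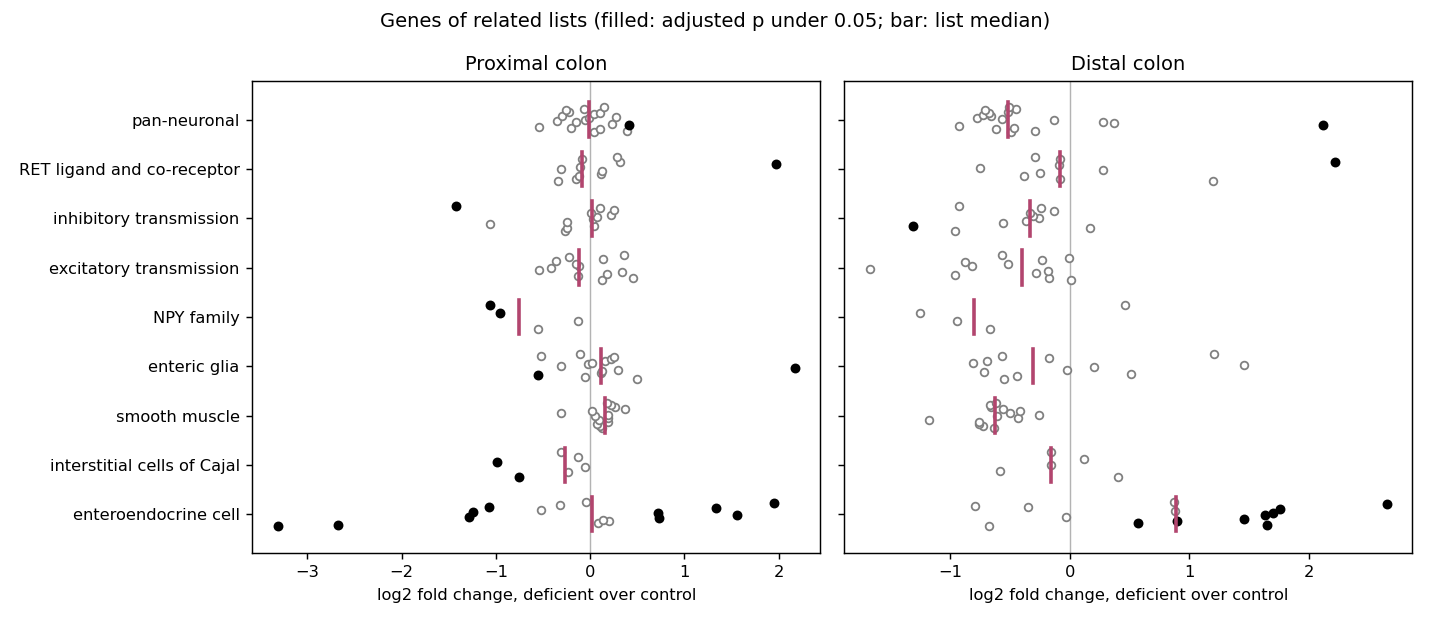
Log2 fold change, deficient over control, of each tested gene in 9 gene lists (filled, adjusted p under 0.05) with the list median as a bar, in proximal and distal colon. Distal medians were -0.52 for pan-neuronal, -0.30 for enteric glia and -0.62 for smooth muscle genes, and 0.89 for enteroendocrine genes.

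Taken over the 8 genes, 1 had an unadjusted p under 0.05 in proximal colon (Vip), against 22.9% of all genes tested, and 4 did in distal colon (Npy2r, Vip, Uchl1 and S100b), against 18.4%. DESeq2 called 0 in proximal and 2 (Npy2r and Vip) in distal colon. The median of the 8 log2 fold changes was -0.09 in proximal and -0.62 in distal colon, with 6 of 8 below 0 in each. Exact permutation tests of single genes, two-sided and unadjusted, gave p = 0.0903 for Vip and 0.0967 for Nos1 in proximal colon, and in distal colon 0.00932 for Vip, 0.0233 for Uchl1 and 0.0297 for S100b.

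Smooth muscle genes had log2 fold changes below 0 in distal colon, as 6 of the 8 neuron and glia genes did, and none of these passed the test. The summed level of 14 smooth muscle genes was 708 to 2220 CPM (median 1840) in distal deficient libraries and 1470 to 4170 CPM (median 2360) in distal control libraries, and none of the 14 was at 0 in any library. All 14 had a log2 fold change below 0 in distal colon, with 0 called and a median of -0.62, the same as the median of the 8 genes. The 2 of smallest p were Hspb7 at -1.18 (edgeR adjusted p = 0.232) and Cnn1 at -0.76 (adjusted p = 0.267). In proximal colon the sums spanned 2630 to 4690 CPM among deficient libraries and 1990 to 4020 CPM among control libraries, and 13 of 14 genes were above 0.

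Across the 13 distal libraries, each set as a deviation from its genotype mean, the level of 6 of the 8 genes followed the smooth muscle sum. Pearson's r, given as a description, was 0.92 for Elavl4, 0.89 for S100b, 0.85 for Nos1, 0.84 for Uchl1, 0.76 for Vip and 0.72 for Sox10. It was -0.02 for Ret and -0.44 for Npy2r. The libraries share depth and scaling, and without deficient replicates 3 and 7 the values ran from 0.46 (Vip) to 0.82 (S100b) for the same 6 genes. Ret then came to 0.48, within that range, and Npy2r to -0.17, so the low value of Ret rested on those libraries. In the 14 proximal libraries r was highest for Uchl1 and Sox10, at 0.84 each, and was 0.09 for Ret and 0.07 for Nos1. Between these lay Vip at 0.77, Elavl4 at 0.73, Npy2r at 0.66 and S100b at 0.57, so Npy2r followed the sum there and not distally. The covariate of the fits was another measure, the mean log2 CPM of the same smooth muscle genes and not their sum. With it in the distal fit, Elavl4, Nos1 and Sox10 came to 0.09, 0.18 and 0.03, turning from below to above 0, while Npy2r stayed at 2.35. Whether the pieces differed in how much muscle wall they held was not tested.

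**Figure D5:**
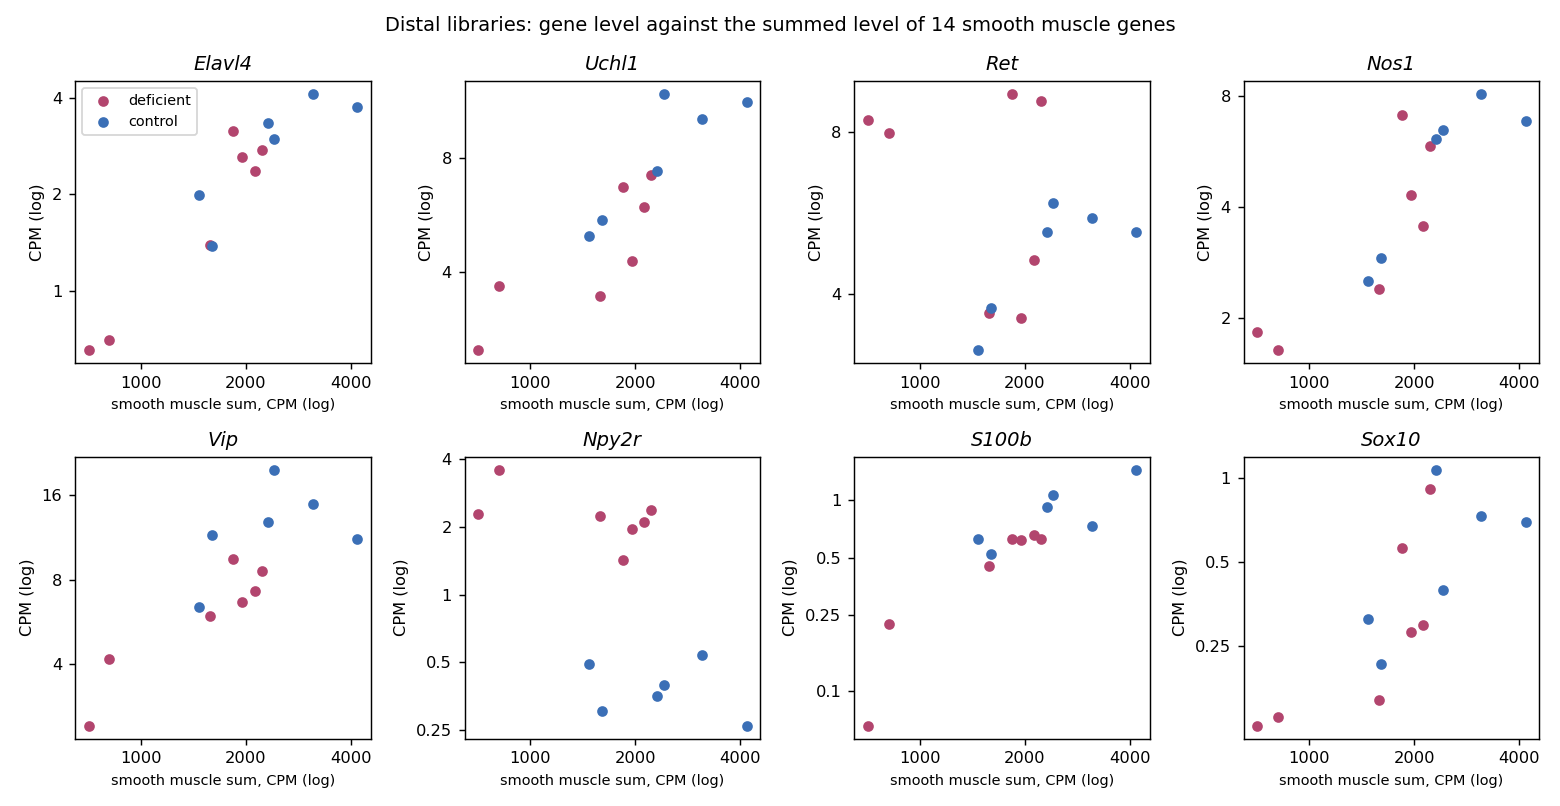
Level of each of the 8 genes in CPM (log axis) against the summed CPM of 14 smooth muscle genes (log axis) in the 7 deficient and 6 control distal libraries. With each genotype mean removed, which the plot does not do, r with the muscle sum was 0.92 for Elavl4 and 0.89 for S100b. Npy2r was higher in all deficient than in all control libraries, whose muscle sums overlapped only between 1470 and 2220 CPM.

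Other cell types were checked in the same way. Of 6 genes listed for the interstitial cells of Cajal, pacemaker cells beside the ganglia, 2 were lower and 0 higher in proximal colon. In distal colon 0 of 5 tested were called. Kit, a receptor kinase gene, averaged 26.2 ± 5.64 CPM in proximal deficient and 52.8 ± 9.59 CPM in proximal control libraries (log2 fold change -0.99, edgeR adjusted p = 0.000163). Ano1, a chloride channel gene, fell by 0.75 on the log2 scale (adjusted p = 0.0004). Which cells of the whole tissue carried Kit and Ano1 was not tested. Of 8 fibroblast genes 1 rose in proximal colon, Pdgfra at 0.54 (adjusted p = 0.0164), and 0 were called in distal colon. Of 8 macrophage genes 2 rose in proximal colon, Mertk at 0.67 (adjusted p = 5.58e-05) and Itgam at 0.51 (adjusted p = 0.0341), and 1 in distal colon, Itgam at 1.14 (adjusted p = 0.0186). Epithelial and adipocyte lists had 0 genes called in either segment. The adipocyte median was -0.59 in proximal and -1.48 in distal colon, where 5 of 5 tested genes were below 0. The epithelial median was 0.18 in proximal and -0.1 in distal colon. Epcam was at 0.24 in proximal colon (adjusted p = 0.159) and Krt20 at -0.45 in distal colon (adjusted p = 0.256), and the adipocyte genes Adipoq and Lep were at -0.95 (adjusted p = 0.125) and -0.88 (adjusted p = 0.127) in proximal colon. The part of these cells in the levels of the 8 genes was not tested.

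Along the colon the glial genes were lower distally. Distal over proximal, 3 of the 8 genes were called in deficient mice and 3 in control mice, all lower, against 45.3% (22.2% lower) and 43.3% (21.7% lower) of all genes tested. At an unadjusted p under 0.05 the counts were 4 of 8 in deficient mice, against 53.8% of all genes, and 4 of 8 in control mice, against 52.6%. Effective lengths fell short of transcript lengths by 249 bases throughout distal colon and by about 215 to 246 bases, differing from library to library, in proximal colon, so segment and quantification settings cannot be told apart here. Sox10 had a log2 fold change of -1.75 in deficient mice (SE 0.41, edgeR adjusted p = 0.00689) and -1.24 in control mice (SE 0.27, adjusted p = 0.00543), and was lower distally in 7 of 7 deficient and 6 of 6 control mice. S100b was at -1.65 in deficient mice (SE 0.37, adjusted p = 0.00532), lower in 7 of 7. In control mice S100b was at -0.74 (SE 0.26, adjusted p = 0.0462), lower in 5 of 6, a call lost in 9 of 11 alternatives, with an adjusted p of 0.0517 to 0.116 when control replicates 1 to 5 were each left out. Smooth muscle genes were also lower distally, with 13 of 14 called in deficient and 6 of 14 in control mice.

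Of the neuron genes other than Npy2r, 1 was called between segments, and in deficient mice. Uchl1 was lower distally in deficient mice (log2 fold change -1.15, SE 0.24, edgeR adjusted p = 0.00394, 6 of 7 mice), beside -0.44 in control mice (adjusted p = 0.146, and 0.0225 without control replicate 6). Vip was at -0.64 in deficient mice (adjusted p = 0.0887, and 0.0479 without deficient replicate 1) and -0.25 in control mice (adjusted p = 0.537, and 0.00553 without control replicate 6). Ret was at -0.26 in deficient mice (adjusted p = 0.41) and -0.42 in control mice (adjusted p = 0.0567, and 0.0376 and 0.0357 without control replicates 3 and 6). Elavl4 was at -0.65 in deficient mice (adjusted p = 0.14, and 0.0481 without deficient replicate 1) and 0.05 in control mice (adjusted p = 0.894), and Nos1 at -0.44 in deficient (adjusted p = 0.32) and -0.17 in control mice (adjusted p = 0.458). For none of the 7 genes other than Npy2r did the test of the difference between genotypes pass, with intervals such as -1.46 to 0.07 for Uchl1 and -1.91 to 0.12 for S100b.

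Levels of different genes were ordered per length, as TPM (transcript abundance scaled by effective length) summed per gene. In all 4 groups Uchl1 and Vip stood highest. Uchl1 averaged 6.42 ± 2.62 TPM in distal deficient (n = 7) and 10.4 ± 3.36 TPM in distal control libraries (SD, n = 6), and Vip averaged 5.93 ± 2.49 TPM in distal deficient and 10.8 ± 3.54 TPM in distal control libraries, the pair overlapping within each group. Ret followed at 1.7 ± 0.669 TPM in distal deficient and 1.12 ± 0.284 TPM in distal control libraries. Below Ret, each gene's range overlapped that of the next in every group. Npy2r ranked 4 of 8 in distal deficient libraries at 0.875 ± 0.25 TPM and 8 of 8 in distal control libraries at 0.139 ± 0.0454 TPM, its range there overlapping that of Sox10 above it. In both proximal groups Npy2r ranked 5 of 8, at 1.11 ± 0.207 TPM in deficient and 1.18 ± 0.385 TPM in control libraries (n = 7 each). Nos1 and Sox10 filled the last places in proximal colon.

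Genes most like each of the 8 were taken as those with the highest smaller value of Pearson's r in 14 proximal and 13 distal libraries, over 15574 genes and after each genotype mean was removed. Uchl1 was most like Tubb3, the neuronal tubulin (0.94 proximal, 0.91 distal), then Pfn2 (0.92, 0.91) and Ptn (0.90, 0.90). Elavl4 was most like Syt4, a synaptotagmin (0.87, 0.95), then Ptn and Foxp2 (0.87, 0.87 each). Nos1 was nearest Tub (0.83, 0.91), Ina, a neuronal intermediate filament (0.81, 0.81), and Iqsec3 (0.85, 0.80). Vip was nearest Sema3a (0.92, 0.87), Ogn (0.92, 0.85) and Fgf13 (0.84, 0.88).

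The glial genes had muscle or vessel genes near them as well. S100b was nearest Fxyd1 (0.83, 0.84), Emcn, an endothelial gene (0.83, 0.91), and Nexn, a muscle actin-binding gene (0.84, 0.82). Sox10 was nearest Cbln2 (0.86, 0.86), Fam171b (0.86, 0.85) and Flna (0.88, 0.85). Ret had looser neighbours, Mpp2 (0.72, 0.71), Pld2 (0.68, 0.68) and Lysmd4 (0.66, 0.68). Npy2r had the loosest, Pdia6 (0.59, 0.61), Armcx3 (0.60, 0.58) and Pgf (0.56, 0.61). Between pairs of the 8 in distal libraries r ran from 0.93 for Elavl4 and Nos1 to -0.44 for Nos1 and Npy2r. In proximal libraries it ran from 0.8 for Elavl4 and Uchl1 to -0.63 for Nos1 and S100b. There Elavl4 and Nos1 were at -0.16, and the pairs of Npy2r ran from 0.11 with Ret to 0.72 with Vip.

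Annotated transcripts were examined last. A single transcript held at least 96.8% of the Vip counts and at least 97.1% of the Nos1 counts in every library, and S100b had 1 annotated transcript. Ret was divided between the longer Ret-201 and the shorter Ret-202. Ret-201 took 40.2 ± 7.03% in proximal deficient and 46.8 ± 6.58% in proximal control libraries (SD, n = 7 each), and 40.2 ± 11.5% in 7 distal deficient and 48.7 ± 6.65% in 6 distal control libraries, with overlap in both segments and no test. The share of Npy2r-201 ran from 0 to 100% among distal deficient libraries, so Npy2r-201 and Npy2r-202, of 3364 and 3325 bases, were not stably separated, and the Npy2r result is for the sum of its transcripts. In the authors' deposited log2 CPM matrices the 8 genes were present for proximal colon and 6 of them for distal colon, where S100b and Sox10 were absent.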

How the data were processed

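RNA from short pieces of whole mouse colon was made into poly(A) libraries, 27 from 14 mice, with each replicate a separate mouse. The authors deposited, per the file headers, estimated counts, effective lengths and TPM per transcript, and their processing notes name bcl2fastq 2.20.0.422, cutadapt 2.5, kallisto 0.46.2 and edgeR, with GRCm38. They also deposited log2 CPM matrices per segment, whose scaling no source used here describes. For the 8 genes these matrices differed from log2 CPM recomputed from the estimated counts by a median of 0.204 and at most 2.4 in proximal colon (8 genes), and by 0.0422 and at most 1.42 in distal colon (6 genes). Estimated counts of 116728 of 119414 transcripts were summed per GENCODE M21 gene and rounded, and the other 2686 held 0.9 to 1.27% of counts. Each genotype comparison was fitted within its segment with edgeR 4.0.16 (R 4.3.3; filterByExpr, TMM, quasi-likelihood test, Benjamini-Hochberg adjustment over all genes tested), and the comparisons between segments used mouse as a block, over 13 mice with both segments. Printed CPM came from TMM scaling over all 27 libraries, log2 CPM used a prior count of 2, and intervals are 95%. DESeq2 1.42.0 and limma 3.58.1 served as alternatives, beside other scaling, no filter, a length offset, subsets of mice, a smooth muscle covariate and each library left out. The fits were tested on simulated data.

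The 8 genes and the 13 wider lists (148 genes) were chosen with earlier results of these data known. Of each list, up to 4 genes of smallest p among those called in a genotype comparison are named, or 2 where none was called. Chgb is named besides, for its part in the enteroendocrine sum. Of the genes most like each of the 8, the 3 nearest are named. TPM served only to order levels of different genes. Counting covers whole genes, and no source used here states how strand was handled.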

Additional observations from a re-analysis of the deposited data

Results flagged for a closer look

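The genotype effect on Npy2r differed between the segments of the colon. The log2 fold change, deficient over control, was 2.53 in distal and -0.04 in proximal colon, and the difference, distal minus proximal, was 2.54 (edgeR adjusted p = 0.00258, 13 mice). No library of any group of the 8 genes stood apart from its group by a test of the gap to its nearest neighbour, over 32 groups checked.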

How the results depend on the processing

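Npy2r kept its call in distal colon in every alternative run, at 2.35 to 2.66, and its difference between segments at 2.34 to 2.68 when each mouse was left out. Of 725 alternative values of the 8 genes, 682 kept direction and side of the threshold, 18 turned sign, 16 newly passed it and 9 lost a call. These values include the exact permutation tests, where an unadjusted p under 0.05 counted as passing. The gains of distal Uchl1 and S100b were only of this kind. In proximal colon 1 gene (Vip) was called, against 0, with control mice without Cre only, with mice of 9 to 13 months only and with the smooth muscle covariate, and 0 to 1 when each library was left out. In distal colon DESeq2 called 2, and 4 had an exact permutation p under 0.05 before adjustment, against 1, with 1 to 2 when each library was left out. Distal over proximal, leaving out each mouse gave 3 to 5 calls in deficient and 2 to 6 in control mice, against 3 and 3.

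The sign turned for the following values, and the cause was not tested. Proximal S100b came to -0.02 with control mice without Cre, -0.12 with mice labelled male, -0.06 with mice of 9 to 13 months and -0.0 with the covariate, and ran from -0.05 to 0.16 when each library was left out. Proximal Elavl4 then ran from -0.2 to 0.02 and proximal Npy2r from -0.12 to 0.05. Proximal Sox10 was 0.0 by limma on the deposited log2 CPM, which differed from the recomputed values by up to 2.4 among the 8 genes in proximal colon. With the covariate distal Elavl4, Nos1 and Sox10 were 0.09, 0.18 and 0.03. Distal over proximal in control mice, Elavl4 ran from -0.09 to 0.29.

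Replicate numbers do not pair the mice (same-numbered correlations -0.16 to 0.27). With replicate number as a block 0 genes were called in proximal and 1 in distal colon, where Npy2r was at 2.52 (edgeR adjusted p = 0.00252). Without the mouse block the segment comparisons called 3 in deficient and 2 in control mice. Distal Sox10 could not be fitted without deficient replicate 1, which left it under the count filter, and distal S100b and Sox10 had no value in the deposited matrix. The fit without deficient replicates 3 and 7 was chosen after seeing the data. Few counts limit distal S100b, Sox10 and control Npy2r.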
